A study of Mus musculus with 6 samples.

Results

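The genes of MHC class II antigen presentation were followed in sorted juxtaglomerular (JG) cells and in cultured renal mesenchymal stromal cells (MSC). The members were chosen by name, with earlier results of these data known: H2-Aa, H2-Ab1, H2-Eb1, Cd74, Ciita, H2-DMa and H2-DMb1. They are 7 genes beside 18193 measured genes. Every probe set that the platform annotation pairs with them was taken, 16 of 45037. Of these 16, 14 were paired with 1 member alone and covered 6 of the 7 genes. The other 2 were paired with H2-DMb1 and H2-DMb2 together, so H2-DMb1 had no value of its own.

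JG cells, the renin-secreting cells of the afferent arteriole, were isolated by FACS as YFP+ cells from adult C57BL6 mice with the genotype Ren1c YFP (3 samples). The MSC came from mice of the same strain, genotype and life stage, were isolated by FACS with CD44 and were cultured to confluence (3 samples). The growth medium named for the MSC, DMEM with serum, is repeated on the JG samples, so whether the JG cells were also cultured is not settled by the labels. Total RNA was extracted with Picopure, 100 ng was turned into biotinylated cRNA, and each sample was read on 1 Affymetrix mouse array. Nothing in the labels ties samples to single animals, to separate cultures or to pools, so p-values measure only the spread between these samples.

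Class II molecules are pairs of an alpha and a beta chain that show peptides from endosomes to CD4+ T cells. In the mouse the I-A molecule is made of the H2-Aa and H2-Ab1 chains, and I-E of the H2-Ea and H2-Eb1 chains. Cd74, the invariant chain, blocks the peptide groove and guides new class II molecules to endosomes, where H2-DM, made of H2-DMa and a H2-DMb chain, exchanges the last piece of the invariant chain for a peptide. Ciita is the coactivator that class II genes need for transcription, and interferon gamma induces it in many cells that do not express class II constitutively. In the kidney, class II is known chiefly from dendritic cells and macrophages, and it can be induced on tubule epithelium.

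Class II promoters share an X box, bound by the RFX and CREB factors, and a Y box, bound by NF-Y, on which Ciita docks. The stretch of 60 bases that ends just past the Y box is shown to let the shared letters be seen beside the array values of the same genes. Capitals mark the Y core TGATTGG and, where present, the X core AACNGATG, written 5′ to 3′ on the strand of the gene. The sequences are those of RefSeq for GRCm38.p6, which gave a promoter entry of 300 bases for 4 of the 7 members. H2-Ab1, Cd74 and Ciita are named only.
H2-Aa, chr17:34287859-34287918, minus strand: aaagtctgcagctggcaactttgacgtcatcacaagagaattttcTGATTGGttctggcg
H2-Eb1, chr17:34305761-34305820, plus strand: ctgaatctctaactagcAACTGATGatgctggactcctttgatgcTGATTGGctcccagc
H2-DMb1, chr17:34153083-34153142, plus strand: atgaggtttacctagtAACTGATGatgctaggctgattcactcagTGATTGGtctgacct
H2-DMb2, chr17:34145112-34145171, plus strand: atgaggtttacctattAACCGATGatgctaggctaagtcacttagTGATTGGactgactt
H2-Ob, chr17:34238801-34238860, plus strand: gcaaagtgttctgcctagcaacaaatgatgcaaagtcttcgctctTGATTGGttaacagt

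The Y core was present in the promoters of H2-Aa, H2-Eb1 and H2-DMb1 and in those of 4 relatives, H2-DMb2, H2-Oa, H2-Ob and H2-Eb2. It was in neither of the 2 entries for H2-DMa. On either strand it was found in 7.82% of all 32851 promoter entries of the same length, and the X core in 2.32%. An X core that ended 15 to 40 bases before a Y core occurred in 6 entries (0.0183%), and 4 of these belong to H2-Eb1, H2-Eb2, H2-DMb1 and H2-DMb2. The letters of both cores come from textbook boxes and were settled with these promoters in view, so the counts describe them and test nothing. H2-DMb1 and H2-DMb2 shared 53 of the 60 bases shown, and both are read together by 2 probe sets described further on.

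H2-Aa and Cd74 were called higher in JG, 2 of the 6 genes measured on their own, and none was called lower. H2-Ab1, H2-Eb1 and Ciita had higher values in every JG sample and did not pass the test, and H2-DMa overlapped between groups. Over all 18193 genes, 7.70% were called higher in JG and 7.63% lower. For 5 of the 6 genes every JG sample lay above every MSC sample, where 20.2% of all genes showed this. The median difference of the 6 was 2.06, against 0.07 over all genes. As the members were chosen with earlier results of these data known, these comparisons describe them and test nothing. A gene is represented by its brightest probe set, each difference is JG minus MSC with its SE, taken after log2 of the intensity plus 16, and a call is an adjusted p under 0.05 from limma with Benjamini-Hochberg adjustment over all genes. Where MSC values lie under 16 the added 16 damps the difference. With all samples 2790 genes were called. Leaving out JG sample 1, 2 or 3 gave 5194, 2826 or 1936 called genes. Leaving out MSC sample 1, 2 or 3 gave 1240, 1152 or 1139. Calls gained or lost without a sample are to be read beside these counts. In RNA from a bulk sample, fewer cells of a type and less RNA per cell cannot be told apart.

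**Figure D1:**
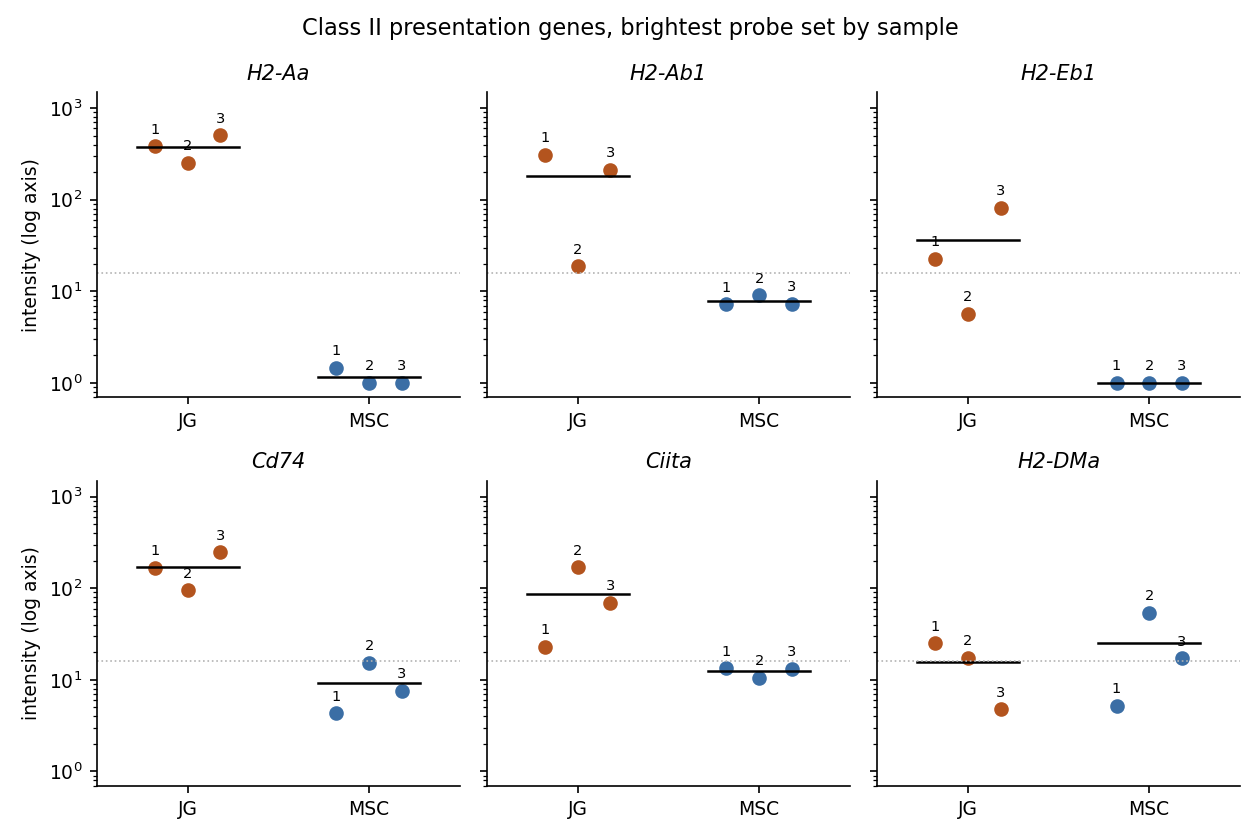
Intensity (log axis) of the brightest probe set of 6 class II presentation genes in each JG and MSC sample. Points are samples with their number, black bars are group means, and the dotted line marks an intensity of 16. JG points lie above all MSC points in every panel other than H2-DMa, and the JG order differs between Ciita and the other panels.

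H2-Aa, the alpha chain of I-A, had intensities of 385.44, 252.31 and 504.24 in JG samples 1 to 3, against 1.47, 1.00 and 1.00 in MSC samples 1 to 3. All JG values were far above the array medians, which ran from 27.3 to 36.5, and the MSC values lay at the floor of the table. The difference was 4.48 ± 0.30 (95% interval 3.76 to 5.20, adjusted p = 0.000318), and it was called whichever sample was left out (highest adjusted p = 0.00469).

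The other 3 H2-Aa probe sets were dimmer. One had 123.00, 121.05 and 106.30 in JG samples and 3.64, 1.78 and 1.00 in MSC samples, a narrow spread within JG, and was also called higher over all probe sets (2.87 ± 0.20, adjusted p = 0.000880). Another had 62.76, 12.16 and 19.28 in JG samples and 3.06, 10.65 and 3.57 in MSC samples, did not overlap between groups and was not called (adjusted p = 0.200). The remaining one had 32.42, 12.25 and 9.17 in JG samples against 1.02, 21.53 and 2.37 in MSC samples, and overlapped (adjusted p = 0.477). All 4 carry the suffix s or x, which marks probe sets that can match more than 1 transcript or related genes, so the signal of a near-identical sequence cannot be told apart from that of H2-Aa.

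H2-Ab1, the beta chain that pairs with H2-Aa, had 310.06, 18.78 and 212.41 in JG samples and 7.20, 9.08 and 7.32 in MSC samples. JG samples 1 and 3 were bright and JG sample 2 lay just above MSC. The difference of 2.53 ± 0.82 was not called (95% interval 0.56 to 4.49, adjusted p = 0.0888), and without JG sample 2 it was 3.52 and called (adjusted p = 0.00126). Among its 2 other probe sets, one had 40.42, 6.24 and 23.88 in JG samples, with the same sample lowest, against 5.15, 1.57 and 4.10 in MSC samples (adjusted p = 0.180). The third was near the floor in both groups, at 16.17, 8.52 and 2.57 in JG samples and at most 3.08 in MSC samples.

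H2-Eb1, the beta chain of I-E, was read by 1 probe set, with 22.81, 5.69 and 81.77 in JG samples and exactly 1.00 in each MSC sample. It was above the floor in all JG samples and lowest in JG sample 2. The spread within JG was wide and the difference of 1.36 ± 0.54 was not called (adjusted p = 0.143). Without JG sample 2 it was 1.86 (adjusted p = 0.0426).

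Cd74, the invariant chain, had 166.86, 95.04 and 246.09 in JG samples and 4.34, 15.46 and 7.6 in MSC samples. The groups were far apart, and the order of the JG samples was that of H2-Eb1 and of the brightest H2-Aa probe set. The difference was 2.82 ± 0.38 (95% interval 1.91 to 3.73, adjusted p = 0.00527) and was called whichever sample was left out (highest adjusted p = 0.0335). Adjusted over all probe sets it was called with an adjusted p = 0.00850, and without MSC sample 3 the adjusted p was 0.0526.

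Ciita, the coactivator, did not follow the chains within JG when each was read by its brightest probe set. Its brightest probe set had 23.10, 170.16 and 69.57 in JG samples and 13.41, 10.48 and 13.20 in MSC samples. JG sample 2, the lowest for the brightest probe sets of H2-Aa, H2-Ab1, H2-Eb1 and Cd74, was the highest for Ciita, and JG sample 1 was the lowest. Some dimmer probe sets of H2-Aa and H2-Ab1 were lowest in JG sample 3 instead. The difference of 1.59 ± 0.55 was not called (adjusted p = 0.106), and without JG sample 1 it was 2.16 and called (adjusted p = 0.0125). The fit without JG sample 1 called 5194 of all genes, against 2790 with all samples. A second probe set had the same highest and lowest sample, at 7.62, 96.67 and 11.34 in JG samples against 1.73, 6.47 and 4.27 in MSC samples (adjusted p = 0.323). The third stayed under 16 in every sample.

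H2-DMa, the alpha chain of H2-DM, overlapped between groups, at 25.01, 17.52 and 4.80 in JG samples and 5.20, 53.85 and 17.23 in MSC samples. Its difference of -0.26 ± 0.50 had a 95% interval from -1.46 to 0.94, which leaves room for a shift in either direction. Its second probe set overlapped as well, at 16.86, 22.01 and 15.57 in JG samples and 14.45, 19.49 and 11.03 in MSC samples (0.14, adjusted p = 0.715). Both were dim.

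The 2 probe sets shared by H2-DMb1 and H2-DMb2, the beta chains of H2-DM, disagreed. The first had 18.81, 19.43 and 12.65 in JG samples and 47.14, 83.08 and 113.57 in MSC samples, and was called lower in JG (-1.51 ± 0.32, adjusted p = 0.0362 over all probe sets, of which 5.57% were called lower). That call was lost without JG sample 2 (adjusted p = 0.0648), JG sample 3 (0.098), MSC sample 2 (0.138) or MSC sample 3 (0.128). The second had 5.14, 85.25 and 75.78 in JG samples and 23.58, 32.02 and 30.11 in MSC samples. It overlapped (0.39 ± 0.62, adjusted p = 0.730) and, with JG sample 1 the lowest of all, was called higher without it (1.12, adjusted p = 0.0223).

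H2-DMb2 also had probe sets of its own. The brightest had 76.82, 77.29 and 48.03 in JG samples and 37.20, 20.58 and 10.01 in MSC samples, which put all JG samples above all MSC samples, and was not called (1.15, adjusted p = 0.0707). Its other 2 probe sets lay under 16 in every sample. No statement about H2-DMb1 alone follows from these values.

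Taken by probe set, 3 of the 14 that are paired with 1 member were called higher in JG, 2 of H2-Aa and 1 of Cd74, and none was called lower. Over all 45037 probe sets, 4.23% were called higher in JG and 9.80% in either direction. In 10 of the 14 the JG samples all lay above the MSC samples, where 16.1% of all probe sets did. Of the 14, 11 lay under 16 in all MSC samples and 1 in all 6 samples. Without JG sample 2 the count was 5.

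**Figure D2:**
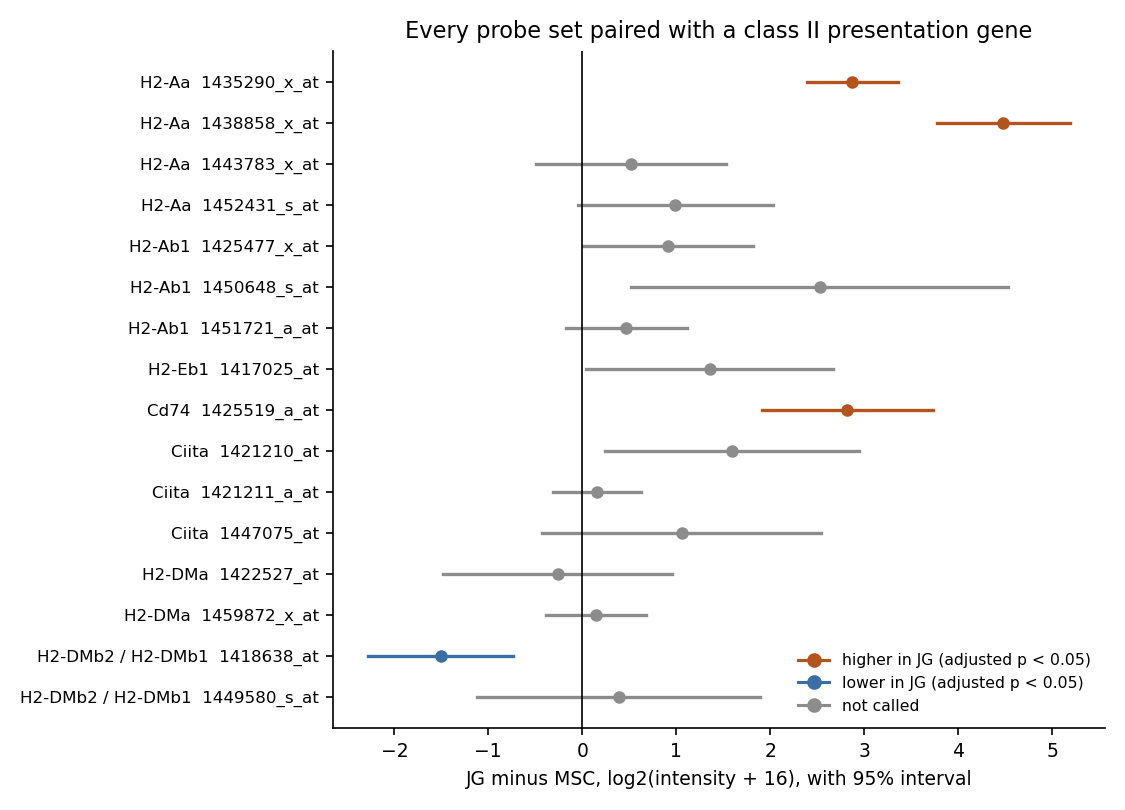
Difference JG minus MSC of each of the 16 probe sets, on the scale of log2(intensity + 16), as points with 95% intervals, coloured by the call over all 45037 probe sets. The 2 called probe sets of H2-Aa and that of Cd74 lie to the right of 0, and 1 of the 2 probe sets shared by H2-DMb1 and H2-DMb2 lies to the left.

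Other genes of the class II region were not called, 0 of 5 measured in either direction, with a median difference of 0.62. For comparison, limma gave an unadjusted p under 0.05 to 2 of the 5, H2-DMb2 and H2-Oa. The unadjusted threshold is the weaker one, and 15.3% of all genes passed even the adjusted one, in either direction. The share of all genes that passed the unadjusted threshold was not computed, so unadjusted counts per list have no background beside them. H2-Oa, the alpha chain of H2-O, which restrains H2-DM, had 22.86, 34.56 and 22.87 in JG samples and 9.75, 15.42 and 9.95 in MSC samples, a separation of dim values (0.62 ± 0.24, adjusted p = 0.131). H2-Ob, its beta chain, overlapped at 3.46, 9.27 and 21.11 in JG samples and 2.31, 12.37 and 1.62 in MSC samples. H2-Eb2 was under 16 in all samples.

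H2-Ea, the alpha chain of I-E, gave the widest spread within JG among these genes. C57BL6 mice are known to make no I-E because their H2-Ea is defective, and RefSeq lists the gene of this strain as a transcribed pseudogene. Its brightest probe set had 82.53, 1923.52 and 1615.89 in JG samples and 209.12, 51.86 and 166.44 in MSC samples. JG samples 2 and 3 were far above all others and JG sample 1 lay within the MSC range. The difference was 2.27 and was not called (adjusted p = 0.246). The other 2 probe sets of H2-Ea were dim, at 6.59, 4.12 and 7.03 in JG samples for one and 5.87, 22.27 and 1.62 for the other, against at most 6.48 in MSC samples, and showed no such step. Whether the bright probe set reads a transcript of H2-Ea was not tested.

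Of 9 factors that bind the X and Y boxes or are recruited there by Ciita none was called by its brightest probe set, with a median difference of -0.42. Limma gave an unadjusted p under 0.05 to 1 of the 9, Nfya. Rfx5, the DNA-binding subunit of RFX, had 228.40, 301.76 and 872.03 in JG samples and 173.48, 215.88 and 124.93 in MSC samples, with JG sample 3 standing apart (1.16, adjusted p = 0.182). Its partners were Rfxank at 83.92, 64.86 and 69.61 in JG samples and 26.60, 51.51 and 60.08 in MSC samples, and Rfxap at 88.42, 94.93 and 47.75 in JG samples and 103.19, 123.09 and 202.24 in MSC samples. Rfxank values did not overlap, with JG above MSC, nor did those of Rfxap, with JG below MSC, and neither passed the test (adjusted p = 0.250 and 0.192).

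Among the NF-Y subunits, Nfya had 148.67, 7.34 and 163.62 in JG samples and 441.17, 569.18 and 323.82 in MSC samples. It was lowest in JG sample 2, and without that sample it was called lower in JG (adjusted p = 0.0366). A dimmer Nfya probe set was called lower over all probe sets (-2.06 ± 0.32, adjusted p = 0.0140), at 10.08, 23.18 and 7.32 in JG samples and 72.42, 129.05 and 119.47 in MSC samples. Nfyb had 497.21, 356.14 and 363.40 in JG samples and 414.98, 390.12 and 452.93 in MSC samples and overlapped. Its second probe set was called lower in JG (-1.11 ± 0.25, adjusted p = 0.0461 over all probe sets).

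Nfyc had 244.63, 1409.23 and 1505.19 in JG samples and 251.81, 229.30 and 296.29 in MSC samples. As with H2-Ea, JG samples 2 and 3 were high and JG sample 1 was at the MSC level, and without JG sample 1 Nfyc was called higher (adjusted p = 0.00228), as was H2-Ea (adjusted p = 0.00849). Creb1, which binds the X box with RFX, and the acetyltransferase genes Crebbp and Kat2b, which Ciita recruits, were lower on average in JG and not called. Without JG sample 1 Kat2b was called (adjusted p = 0.0321). The fit without that sample called 5194 of all genes, against 2790 with all samples. Of 6 Creb1 probe sets, 1 was called lower in JG (-1.89 ± 0.37, adjusted p = 0.0301 over all probe sets).

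**Figure D3:**
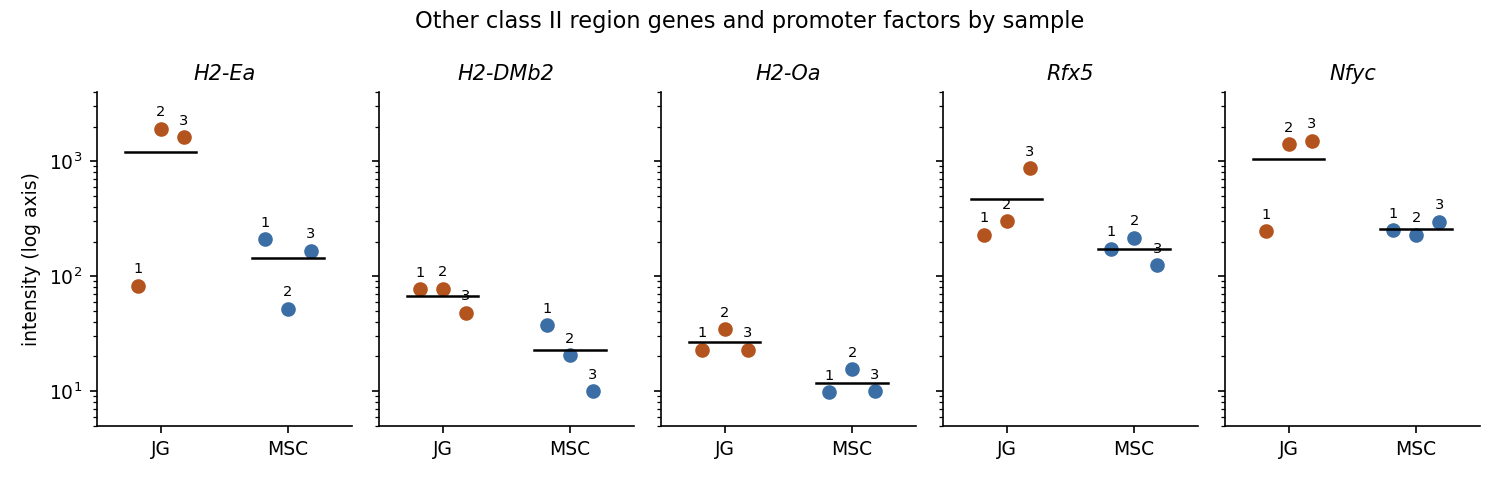
Intensity (log axis) of the brightest probe set of H2-Ea, H2-DMb2, H2-Oa, Rfx5 and Nfyc in each JG and MSC sample. Points are samples with their number and black bars are group means. JG sample 1 lies below the MSC mean for H2-Ea and Nfyc, while JG samples 2 and 3 lie above every MSC sample.

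Endosomal processing genes, which cut antigens and the invariant chain, showed 1 call in 12, Ctsh, a cysteine cathepsin that was higher in JG (1.47 ± 0.30, adjusted p = 0.0236) with 695.37, 463.51 and 782.42 in JG samples and 259.89, 235.24 and 169.51 in MSC samples. Its call was lost without JG sample 3 or any 1 of the MSC samples (highest adjusted p = 0.101), fits in which calls over all genes fell as well. Ctss, the cathepsin that completes invariant chain cleavage in most antigen-presenting cells, had 116.71, 12.85 and 19.03 in JG samples and 3.06, 28.27 and 8.16 in MSC samples and overlapped. Ctsl, which serves this step in the thymus cortex, had 4604.18, 2125.30 and 2690.86 in JG samples and 6915.52, 6763.10 and 7221.02 in MSC samples and was not called (adjusted p = 0.0543). The list median was -0.19.

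Class I presentation genes, which serve peptides from the cytosol, did not show the difference of H2-Aa and Cd74. Of 15 measured, none was called higher and 1 lower, H2-M3, a nonclassical class I heavy chain (-1.88 ± 0.28, adjusted p = 0.00842), and the median was -0.25. H2-M3 had 90.64, 67.69 and 44.96 in JG samples and 245.05, 311.29 and 300.87 in MSC samples, and its call held in each fit with 1 sample left out (highest adjusted p = 0.0499). Without JG sample 1 the genes called lower were 5, in a fit that called 5194 of all genes against 2790 with all samples. B2m, the light chain of class I, had 3756.50, 2002.57 and 2444.97 in JG samples and 4044.61, 3581.98 and 4495.40 in MSC samples and was not called. No test of the difference between the class I and class II lists was made.

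Genes of the interferon gamma response lay in both directions. Of 16 measured none was called higher in JG and 3 were called lower, with a median of 0.27, and an unadjusted p under 0.05 was found for 4 higher and 4 lower in JG. The 4 higher were Irf8 (2.02, adjusted p = 0.0770), Igtp (1.02, adjusted p = 0.0811), Cxcl10 (1.48, adjusted p = 0.118) and Cxcl9 (0.96, adjusted p = 0.125), each with every JG sample above every MSC sample. Such a separation was shown by 20.2% of all genes. Irgm1, an interferon-induced GTPase, had 22.05, 8.32 and 6.80 in JG samples and 307.02, 322.92 and 204.16 in MSC samples (-3.39 ± 0.31, adjusted p = 0.00123), a call that held in each fit with 1 sample left out. Ifngr2, a chain of the interferon gamma receptor, had 159.51, 8.68 and 14.85 in JG samples and 558.35, 485.90 and 694.37 in MSC samples (-3.53 ± 0.74, adjusted p = 0.0259), and of the 6 fits with 1 sample left out only that without JG sample 1 called it. Socs1, a feedback inhibitor of the pathway, was lower as well (-1.44 ± 0.23, adjusted p = 0.0107), with at most 7.32 in JG samples and at least 33.40 in MSC samples, and lost its call without MSC sample 2 or 3 (highest adjusted p = 0.0584). The genes called lower were 1 without MSC sample 2 or 3, and 1 gene was called higher in each fit that left out a JG sample.

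Markers of cells that carry class II constitutively were measured beside the members. Of 20 macrophage markers 6 were called higher in JG and none lower, with a median of 0.68. The summed intensity of the list was 2366.1, 3760.9 and 5516.3 in JG samples and 422.8, 839.0 and 316.4 in MSC samples and was lowest in JG sample 1 within JG. Single markers did not all share that order: Laptm5, C1qb and Spi1 were lowest in JG sample 1, and Tyrobp, an adaptor of myeloid receptors, was lowest in JG sample 2, at 230.42, 100.89 and 160.45 in JG samples and 11.70, 118.99 and 3.10 in MSC samples. Laptm5, a lysosomal membrane protein of leukocytes, had 680.77, 982.72 and 1115.67 in JG samples and 7.45, 60.84 and 9.56 in MSC samples (4.69 ± 0.51, adjusted p = 0.00223). Spi1, the myeloid and B cell transcription factor PU.1, had 30.42, 56.83 and 38.06 in JG samples and 6.26, 7.26 and 8.50 in MSC samples (1.28 ± 0.25, adjusted p = 0.0210), and Ptprc, the pan-leukocyte antigen CD45, had 19.53, 31.36 and 23.48 in JG samples and 3.41, 2.88 and 6.63 in MSC samples (1.00 ± 0.23, adjusted p = 0.0357).

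Csf1r, Mertk and C1qb were the others called. Mertk had 405.37, 373.72 and 1073.99 in JG samples and 184.51, 31.71 and 68.22 in MSC samples. Within JG it was highest in sample 3 and lowest in sample 2. Csf1r, the receptor for the macrophage growth factor, had 343.11, 377.54 and 1958.32 in JG samples and 42.38, 128.66 and 66.30 in MSC samples. C1qb, a complement chain, had 269.95, 1318.02 and 658.72 in JG samples and 2.36, 50.88 and 1.00 in MSC samples. Its partners C1qa and C1qc overlapped between groups. The macrophage markers Fcgr1, Aif1 and Itgam lay under 16 in all JG samples, and Adgre1, which encodes F4/80, had 14.92, 34.66 and 35.17 in JG samples and 4.67, 58.20 and 12.09 in MSC samples. Leaving out a sample other than JG sample 1 brought the 6 calls down. They were 2 (MSC sample 1), 3 (MSC sample 2, JG sample 2 or JG sample 3) or 1 (MSC sample 3). Without JG sample 1 the macrophage markers called were 8. Laptm5 held in each fit with 1 sample left out. Calls over all genes fell from 2790 to 1240, 1152 and 1139 without MSC samples 1, 2 and 3. They were 5194, 2826 and 1936 without JG samples 1, 2 and 3. Without probe sets of suffix s, x or a, Laptm5 was not called (0.64, adjusted p = 0.182) and C1qb was not higher (-0.14). The part of macrophages, and of the other cell types whose markers follow, in the class II values was not tested.

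Dendritic cell markers and costimulatory genes gave no call in 13, with a median of 0.28 and a summed intensity of 311.5, 301.8 and 246.7 in JG samples and 245.5, 210.8 and 172.5 in MSC samples. None of the 13 had an unadjusted p under 0.05, and without JG sample 1 the count called higher was 1, where calls over all genes rose too. Batf3, a transcription factor of conventional dendritic cells, had 3.82, 31.06 and 28.06 in JG samples and 2.14, 2.21 and 4.76 in MSC samples, so that JG sample 1 alone lay within the MSC range (adjusted p = 0.176). The brightest in JG, Zbtb46, Cd80 and Cd40, all overlapped between groups, and Cd80 had 39.27, 88.91 and 64.41 in JG samples and 36.38, 47.04 and 26.27 in MSC samples. Flt3, Ccr7, Cd209a, Clec10a and Cd86 lay under 16 in all JG samples, and Itgax, which encodes CD11c, had 38.45, 17.47 and 13.35 in JG samples and 3.17, 15.07 and 17.29 in MSC samples. B cell markers gave no call in 9, with none at an unadjusted p under 0.05, and Cd79a, Pax5 and Blk lay under 16 in all JG samples. Their summed intensity was 479.7, 224.8 and 907.8 in JG samples and 324.6, 307.7 and 373.6 in MSC samples. Of that sum, Ebf1, which stromal cells also express, gave 353.89, 46.27 and 380.16 in JG samples and 211.17, 223.12 and 278.14 in MSC samples. Without Ebf1 the sum was 125.8, 178.5 and 527.6 in JG samples and 113.4, 84.5 and 95.5 in MSC samples. Ighm and Cd22, the next brightest, were raised in JG sample 3 alone, with 312.59 and 119.41 there against at most 48.83 and 24.37 in the other JG samples.

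T cell markers, whose cells in the mouse do not make class II, gave 1 call in 8, Cd8a (adjusted p = 0.0494), which was called without JG sample 1 and in no other fit with 1 sample left out. Cd3e was under 16 in all samples, and Cd247, the brightest, had 446.28, 31.51 and 385.51 in JG samples and 819.00, 738.06 and 704.20 in MSC samples. Of the 8, 3 had an unadjusted p under 0.05, all higher in JG, and in 5 every JG sample lay above every MSC sample, among them Cd2 with 20.51, 56.67 and 28.15 in JG samples and 7.32, 8.72 and 6.83 in MSC samples (adjusted p = 0.0698). That separation was shown by 20.2% of all genes, and 15.3% were called in either direction even after adjustment. Cd247 was the 1 marker with a negative difference (-1.90, adjusted p = 0.189). It made up most of the list's summed intensity in every sample other than JG sample 2, where it was 31.51 of 244.1. The summed intensity of this list was 584.0, 244.1 and 575.1 in JG samples and 862.8, 825.2 and 773.8 in MSC samples, and without Cd247 it was 137.8, 212.6 and 189.5 in JG samples and 43.8, 87.1 and 69.6 in MSC samples.

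Endothelial and proximal tubule transcripts also stood higher in the JG samples. Of 12 endothelial markers 6 were called higher, with summed intensities of 1348.1, 1362.1 and 1176.7 in JG samples and 235.4, 264.2 and 254.6 in MSC samples. Tek, an endothelial receptor kinase, led them (4.17 ± 0.45, adjusted p = 0.00214), followed by Esam, Robo4, Cdh5 and Cldn5. Leaving out JG sample 3 left 3 calls, MSC sample 1 left 2, and MSC sample 2 or 3 left 1. Calls over all genes fell in each of these fits too. Without JG sample 1 or JG sample 2 the endothelial markers called were 7. All 10 proximal tubule markers were called higher, with sums of 35811.2, 28404.6 and 36514.9 in JG samples and 362.3, 628.0 and 348.4 in MSC samples. This sum, like the brightest H2-Aa probe set and Cd74, was highest in JG sample 3 and lowest in JG sample 2. Single markers did not all share that order, and Slc13a3 was lowest in JG sample 1. Slc34a1, the phosphate transporter of that segment, had 5802.25, 4123.06 and 5542.94 in JG samples and at most 1.36 in MSC samples. It was highest in JG sample 1. The list medians were 1.56 for endothelial and 6.20 for proximal tubule markers.

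The labelled cell types were set against their markers, with a mixed outcome. Cd44, used to sort MSC, had 152.63, 119.29 and 143.94 in JG samples and 1004.59, 1035.35 and 880.59 in MSC samples. Of the 7 sort antigens and stromal markers, Itgb1 and Vim were also called lower in JG, while the stromal antigens Thy1 (2.93 ± 0.31, adjusted p = 0.00197) and Nt5e (3.24 ± 0.75, adjusted p = 0.0348) were called higher in JG. Nt5e was called without JG sample 1 and in no other fit with 1 sample left out, and Itgb1 and Vim lost their calls without JG sample 3 or any 1 of the MSC samples. Calls over all genes also fell in the fits that lost Itgb1 and Vim.

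All 10 measured renin cell markers were called, 6 higher and 4 lower in JG, with a median of 2.43. The 6 called higher became 4 without JG sample 2, and 2, 4 and 3 without MSC samples 1, 2 and 3. The 4 called lower became 3 without any 1 of the MSC samples. Calls over all genes fell to 1240, 1152 and 1139 without MSC samples 1, 2 and 3. Rgs2, Rgs5, Crip1, Ace, Myh11 and Sparcl1 were higher, and Rgs5 had 1105.35, 2343.29 and 2120.26 in JG samples and 86.43, 48.27 and 308.21 in MSC samples. The contractile genes Tagln (-5.44 ± 0.30, adjusted p = 0.000164) and Acta2 (-3.09 ± 0.24, adjusted p = 0.000682), the receptor gene Pdgfrb (-2.92) and Foxd1 (-3.44), a transcription factor of stromal progenitors, were lower in JG. Ren1 and Akr1b7 had no probe set paired with 1 gene, so the defining transcript of JG cells was not analysed here.

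**Figure D4:**
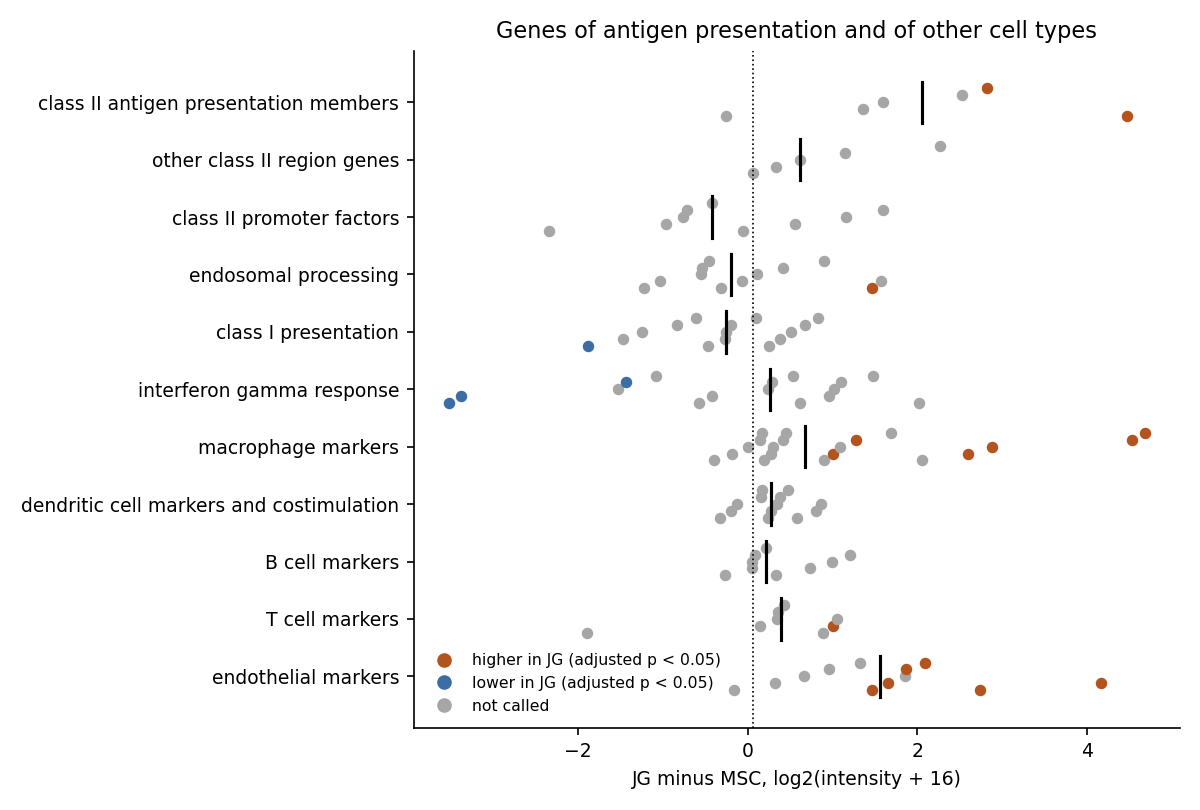
Difference JG minus MSC of each measured gene (points, log2(intensity + 16)) in the class II list and in 10 other lists, with the list median as a black bar and the median of all genes as a dotted line. Called genes are coloured, and vertical offsets within a list only keep points apart. The class II list has a median of 2.06, and the other lists drawn run from -0.42 (promoter factors) to 1.56 (endothelial markers). Proximal tubule (6.20) and renin cell markers (2.43) are not drawn and have higher medians.

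Genes other than the class II members were ranked by the likeness of their profile to that of the members. The mean profile of the 6 measured members on the log2 scale was 6.74, 6.17 and 7.05 in JG samples and 4.40, 4.78 and 4.53 in MSC samples. The members were left out of the ranking, so none could appear in it. So were unnamed gene models and genes with a higher group mean at or below the median of all genes. Among the 8862 genes ranked, the highest Pearson correlations with the mean profile over the 6 samples were those of Amn (0.9971), Acot12 (0.9970), Acp5 (0.9965), Asb9 (0.9964) and Rab11fip3 (0.9962). Amn, a partner of cubilin in the proximal tubule, had 513.46, 191.0 and 638.74 in JG samples and 1.0, 5.81 and 4.45 in MSC samples, and Acp5, an acid phosphatase of osteoclasts and macrophages, had 475.32, 218.3 and 1131.86 in JG samples and 4.79, 17.03 and 10.72 in MSC samples. Both were lowest in JG sample 2 within JG. The 6 points form 2 groups that lie apart, and 550 of these genes reached 0.95.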

How the data were processed

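The deposited table holds a linear intensity for each of 45037 probe sets on 6 arrays. Summarisation, background subtraction and scaling by the authors are not given in the sources used here, and no detection calls were used. Array medians ran from 27.4 to 36.5 in JG samples and from 27.3 to 34.06 in MSC samples, 34.4% to 41.5% of values per array lay under 16, and no pair of arrays was identical. The number of arrays limits the precision. JG samples correlated with each other at means of 0.847 to 0.886 and MSC samples at 0.972 to 0.974.

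The platform annotation paired 34945 probe sets with 1 gene, 932 with several and left 9160 unnamed here. Gene identifiers of 34741 were found in the RefSeq table for GRCm38.p6. Each of 18193 genes was represented by the probe set with the highest mean log2 value. The fit was limma 3.58.1 (lmFit and eBayes, R 4.3.3) on log2 of the intensity plus 16, without covariates, by gene and again by probe set, and was tested on simulated data. Tables were made with pandas 2.3.3 and figures with matplotlib 3.10.9.

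The members and lists were chosen with earlier results of these data known. Named were the members with every probe set, the class II relatives and promoter factors, of each other list at most 5 called genes, for leukocyte lists Ptprc and the 3 brightest in JG, and the 5 most similar genes. Ctss, Ctsl, B2m, Adgre1, Itgax, C1qa, C1qc, Tyrobp, Batf3, Irf8, Igtp, Cxcl9, Cxcl10, Rgs5, Ace, Myh11, Sparcl1, Pdgfrb and the markers under 16 were named after their values were seen. Of the listed symbols, H2-Ea-ps, H2-Ab2 and others without a probe set paired with 1 gene were not analysed here. Alternatives were quantile normalization, median centring, filters at the 25th percentile and the median, pseudocounts of 1 and 64, a trended and robust prior, array weights, each sample left out, a block for the replicate number, the mean of probe sets, and leaving out probe sets of suffix s, x or a.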

Additional observations from a re-analysis of the deposited data

How the results depend on the processing

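H2-Aa and Cd74 stayed called higher in JG by gene under every alternative that kept them; the filter at the median removed Cd74, and both have only probe sets of suffix s, x or a. The 2 called members became 1 with the filter at the median, 4 with a pseudocount of 1, 5 with array weights and 0 without suffixes s, x and a, and ranged from 2 to 4 with 1 sample left out (4 without JG sample 2). The 3 called probe sets became 7 with array weights and 0 without those suffixes, and ranged from 2 to 5 with 1 sample left out. All 2790 called genes became 6177 with array weights and ranged from 1139 (without MSC sample 3) to 5194 (without JG sample 1). Same-numbered samples did not deviate together (correlations of -0.197, -0.00927 and -0.00753). With 3 samples in each group this check cannot exclude a pairing, and the numbers were used only as names. With the replicate number as a block 1613 genes were called, 2 of them members, and the Cd74 probe set had an adjusted p = 0.0529.

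Uncalled genes near 0 changed sign: H2-DMa was 0.017 without JG sample 3 and 0.204 without MSC sample 2 (lowest with 1 sample left out -0.656), H2-Eb2 -0.01 with quantile normalization and -0.042 without JG sample 3 (highest 0.181), Nfyb 0.149 with quantile normalization and 0.022 and 0.008 without JG samples 2 and 3 (lowest -0.21), Cd40 -0.274 with array weights and -0.098 without JG sample 1 (highest 0.893), and Ebf1 0.326 with array weights, 0.604 without JG sample 2 (lowest -0.731), 0.219 with the mean of probe sets and 0.165 without suffixes s, x and a. The second probe set shared by H2-DMb1 and H2-DMb2 was -0.012 without JG sample 2 and at most 1.118, without JG sample 1. C1qb, called higher, was -0.137 without suffixes s, x and a. The cause of these changes was not tested. Recomputed counts of called genes per list and direction stayed within 1.5 times in 360 cases and moved further in 82. The 360 include lists with no call in that direction in either fit, so they do not show how stable the other counts were. H2-Eb2 lay under 16 in all samples, and H2-DMa and H2-Ob had values under 16 in both groups, which limits what these genes can show.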
